A study of Mus musculus with 6 samples.

Results

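The transcripts of 10 cytokine receptor chains were examined in natural killer (NK) cells of mice with a conditional deletion of Mettl3. Its product is the catalytic subunit of the enzyme that writes m6A on mRNA. The genes were chosen by symbol as the paired chains of 5 receptors, for IL-12 (Il12rb1, Il12rb2), IL-18 (Il18r1, Il18rap), IL-10 (Il10ra, Il10rb), IFN-γ (Ifngr1, Ifngr2) and IL-6 (Il6ra, Il6st). All 10 were found among the 14490 genes listed. NK cells were purified by flow cytometric sorting from the spleens of C57BL/6 mice. Every mouse was homozygous for the floxed Mettl3 allele (Mettl3fl/fl). This is the whole genotype given for WT mice, and cKO mice (Ncr1Cre-Mettl3fl/fl) also carried Cre driven from the Ncr1 locus, which encodes the receptor NKp46, so that deletion is limited to cells that express NKp46. There were 3 samples of each genotype. By the study's methods the mice were young adults, and no treatment is named for these samples. The labels do not say that each sample came from a separate mouse, so p-values measure only the spread between these samples, which may be technical.

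These receptors are among the means by which NK cells sense other leukocytes. The IL-12 receptor pairs IL-12Rβ1 with IL-12Rβ2 and signals through JAK2, TYK2 and STAT4. The IL-18 receptor pairs a ligand-binding chain with an accessory chain and recruits MyD88 and IRAK kinases, and IL-12 together with IL-18 is a classical trigger of IFN-γ release by NK cells. The receptors for IL-10, IFN-γ and IL-6 signal through Janus kinases, and the IL-6 signaling chain, gp130 (Il6st), is shared with the receptors of several related cytokines.

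The values are normalized counts, that is, reads per gene divided by a size factor of the sample. From 55965515 to 71464042 reads per sample fell on the listed genes. Mettl3, the deleted gene, measured 1303, 1258 and 1192 normalized counts in the WT and 297, 299 and 405 in cKO samples. All cKO samples were below all WT samples (log2 fold change −1.92, adjusted p = 2.32e-14 by limma, a linear model fitted across all genes). Its exons share 933 bases with Tox4 on the opposite strand, and whether the reads were counted by strand is not given in the sources used here. Ncr1, whose locus carries the Cre allele, was lower in cKO (log2 fold change −0.40, adjusted p = 3.56e-11). Of 9 markers of NK cells 6 were lower and 1 higher in cKO, and their summed level was 658519 to 689075 normalized counts in WT and 595755 to 630753 in cKO samples. Gzma had the highest level of these, with a mean of 267263 in WT and 248449 in cKO. Its call did not hold with the samples scaled to equal totals (adjusted p = 0.115). Tbx21 was higher (log2 fold change 0.23), and Klrd1 (−0.02) and Eomes (−0.01) did not pass the test. All 8 B-cell markers were listed, 6 were higher in cKO, and their sum was 1335 to 1356 in WT and 1795 to 1864 in cKO samples. The 7 listed T-cell markers, 2 of them lower in cKO, summed to 1840 to 2056 in WT and 1438 to 1645 in cKO samples. Most of that difference was in Cd3g, with 802 ± 11.1 normalized counts (SD, n = 3) in WT and 478 ± 23.4 in cKO, while Cd8a (log2 fold change 0.66) and Cd3e (0.15) had values above 0 and neither passed the test. The 5 listed myeloid markers, 2 higher and 1 lower, summed to 6186 to 6718 in WT and 6001 to 6733 in cKO. The 5 listed erythroid markers, with 0 called, summed to 811 to 870 in WT and 684 to 832 in cKO. Over all genes, 17.8% were called higher and 18.8% lower. The calls of Gzma, Ms4a1, Cd22, Pax5, Fcer2a, Cd6 and Cd14 were each lost in some of the fits that left a sample out. No listed marker was at 0 in any sample. The sums of the NK, B-cell and T-cell markers moved with the genotype, and their part in the receptor results was not tested.

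In cKO NK cells, 4 receptor transcripts fell and 1 rose. Il6st, which encodes gp130, fell by 35.3% and Ifngr1, the ligand-binding chain for IFN-γ, fell by 19.3%. Il10ra and Il18rap were lower by smaller margins, Il18r1 was higher by 8.59%, and for both IL-12 receptor chains no difference was detected. In bulk samples, fewer cells of a type and less RNA per cell cannot be told apart. Thus 5 of the 10 receptor genes passed the test (limma on log2(normalized count + 1), two-sided, adjusted p under 0.05 over all genes), while 36.6% of the 14490 genes tested did. One receptor gene was called higher, against 17.8% of all genes, and 4 were called lower, against 18.8%. The genotypes did not overlap for the same number of receptor genes, 5 of 10, and for 45.7% of all genes. The median of the absolute log2 fold change was 0.12 over the receptor genes and 0.17 over all genes, and the signed medians were 0.04 and 0.0014. With the samples scaled to equal totals, the median of all genes moved to 0.05, and 63.4% of all calls were of genes higher in cKO, against 48.5% with the deposited scaling. Under equal totals 3 receptor genes were called, Il18r1 (higher), Ifngr1 and Il6st (both lower).

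**Figure D1:**
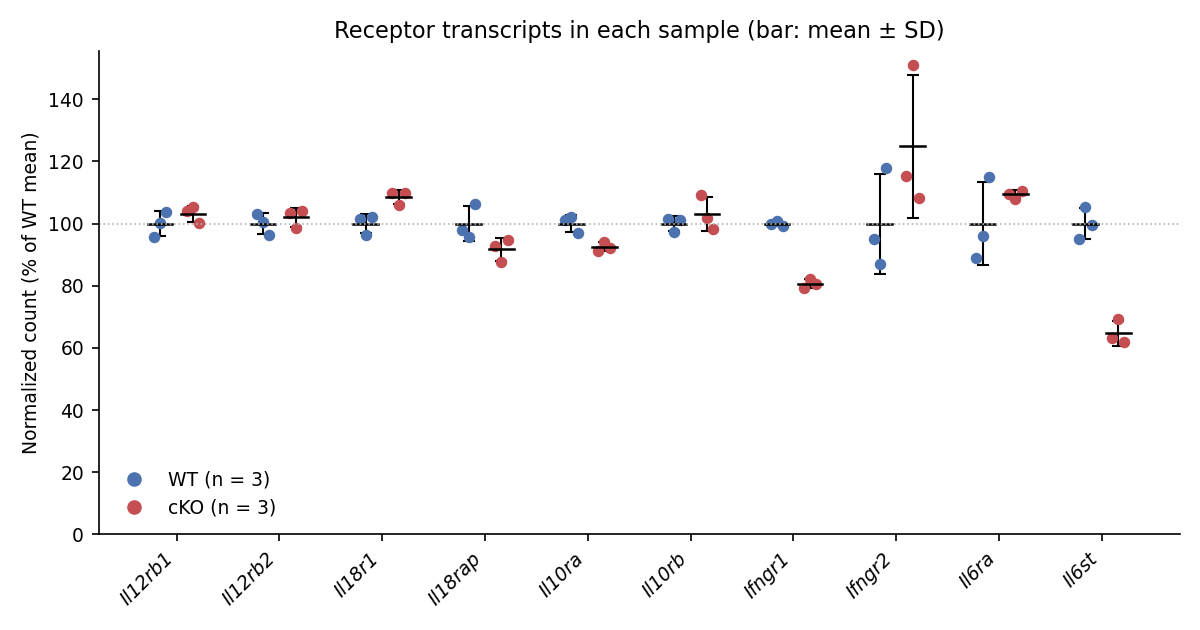
Normalized count of each receptor gene in each sample, as a percentage of the WT mean of that gene (y axis), by gene (x axis). Blue points are the 3 WT samples, red points the 3 cKO samples, and bars give the mean ± SD. All cKO points of Il6st, Ifngr1, Il10ra and Il18rap lie below the WT points, those of Il18r1 lie above them, and Ifngr2 and Il6ra have the widest WT spread.

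The receptor genes spanned a wide range of levels when divided by the length of their exons. Ifngr1 was the highest, with 32624 ± 264 normalized counts per kb (SD, n = 3) in WT, a level above 99.3% of the 14073 genes with a known length. Below it came Il18rap at 6169 ± 348, Il10ra at 4504 ± 121 and Il18r1 at 3692 ± 115 normalized counts per kb in WT. Il12rb2 had 1597 ± 53.4, Il10rb 815 ± 18.7 and Il12rb1 424 ± 17.1 normalized counts per kb in WT, still above the median listed gene at 237. Il6st had 90.3 ± 4.56, and the lowest levels were those of Il6ra at 11.5 ± 1.55 and Ifngr2 at 10.5 ± 1.70 normalized counts per kb in WT. Neighbors in this order did not overlap in either genotype, except Il6ra and Ifngr2, which overlapped in both and exchanged places in cKO. The chains of 1 receptor therefore stood farthest apart on the per-length scale for IFN-γ and closest for IL-18. Lengths are the merged exons of GENCODE, so levels of genes whose NK-cell transcripts use only part of these exons are understated.

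**Figure D2:**
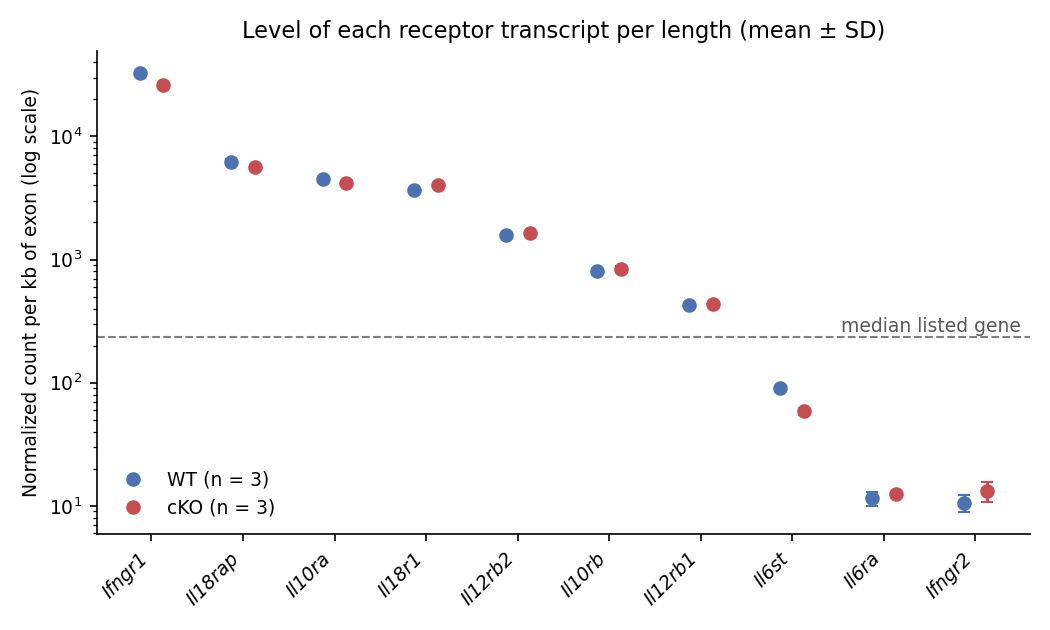
Normalized count per kb of exon (y axis, log scale) of the 10 receptor genes (x axis), in order of their WT level. Points give the mean and bars the SD over 3 samples of WT (blue) and cKO (red), and the dashed line is the median listed gene at 237. Ifngr1 stands at the top and Il6ra and Ifngr2 at the bottom.

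To show the sequences at which these genes start, RefSeq promoter windows of GRCm38.p6 (250 bases before to 50 bases after the start) were used, which covered 7 of the 10 genes. The windows of the pair with the deepest falls among the 10, Il6st and Ifngr1, and of the IL-18 receptor pair, neighbors with opposite fold changes, are printed 5′ to 3′ on the plus strand. Capitals mark a match, on either strand, to 1 of 5 motifs. These were GAS (TTCNNNGAA), AP-1 (TGANTCA), ETS (CCGGAAG), RUNX (TGTGGT) and T-box (TCACACC).
Il6st, chr13:112463820-112464119: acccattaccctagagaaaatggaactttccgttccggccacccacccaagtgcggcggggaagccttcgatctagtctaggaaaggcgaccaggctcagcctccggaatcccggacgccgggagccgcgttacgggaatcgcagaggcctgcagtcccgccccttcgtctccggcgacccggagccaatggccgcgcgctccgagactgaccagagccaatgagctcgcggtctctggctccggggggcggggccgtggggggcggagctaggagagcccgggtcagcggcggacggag
Ifngr1, chr10:19591699-19591998: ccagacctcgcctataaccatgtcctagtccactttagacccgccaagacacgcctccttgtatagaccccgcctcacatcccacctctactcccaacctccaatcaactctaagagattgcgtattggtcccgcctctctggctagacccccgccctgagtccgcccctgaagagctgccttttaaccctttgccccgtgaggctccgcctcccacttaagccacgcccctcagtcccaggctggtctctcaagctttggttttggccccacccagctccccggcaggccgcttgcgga
Il18r1, chr1:40465416-40465601: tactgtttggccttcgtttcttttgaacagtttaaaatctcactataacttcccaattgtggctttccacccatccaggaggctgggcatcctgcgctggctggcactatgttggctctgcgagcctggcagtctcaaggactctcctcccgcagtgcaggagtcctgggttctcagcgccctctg
Il18rap, chr1:40515112-40515411: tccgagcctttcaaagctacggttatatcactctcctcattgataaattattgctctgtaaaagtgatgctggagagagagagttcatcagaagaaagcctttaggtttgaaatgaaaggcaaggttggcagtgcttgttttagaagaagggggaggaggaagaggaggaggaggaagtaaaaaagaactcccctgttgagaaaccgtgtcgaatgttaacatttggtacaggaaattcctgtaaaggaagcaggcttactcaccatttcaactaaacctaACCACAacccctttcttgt
The Il18r1 window is shown from the base after the end of Il1rl1, the gene next to it, and so holds 186 bases instead of 300. The window of Il6st had a GC content of 68.3% and 33 CpG dinucleotides, and that of Ifngr1 60.3% and 14, beside medians of 60.7% and 21 over the promoters of 9908 listed genes. The window of Il18rap was poorer, with 42.3% GC and 4 CpG, and that of Il18r1 had 54.3% GC and 5 CpG in its shorter stretch. A RUNX match lay 31 bases downstream of the start of Il18rap, a motif found in 13.4% of the promoters of listed genes. Among the other windows, that of Il12rb2 held a GAS match, the element that STAT dimers bind, 123 bases upstream of its start, as did 6.98% of those promoters anywhere in the window. These matches are descriptions of letters and no site of binding was measured. AP-1, ETS and T-box motifs matched 4.86%, 18.8% and 3.54% of the listed promoters and 0 of the 7 receptor windows.

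The IL-12 receptor was examined first, since STAT4 signaling from it drives IFN-γ in NK cells. Il12rb1, the chain that binds the p40 subunit shared by IL-12 and IL-23, measured 1666, 1744 and 1806 normalized counts in the WT and 1809, 1829 and 1744 in the cKO samples. The genotypes overlapped, and the log2 fold change of 0.05 had a 95% confidence interval of −0.06 to 0.15 (adjusted p = 0.547). Il12rb1 lies on chromosome 8 of GRCm38, plus strand, from 70808449 to 70821424. Il12rb2, the chain that carries the STAT4 docking site, measured 6245, 6091 and 5844 normalized counts in the WT and 6271, 5975 and 6313 in the cKO samples. These values overlapped as well. The log2 fold change was 0.03 with an interval of −0.05 to 0.11 (adjusted p = 0.585). Il12rb2 lies on chromosome 6 from 67291318 to 67376188, on the minus strand, and its exons share 1519 bases with Serbp1 on the opposite strand. Serbp1 averaged 30373 ± 919 normalized counts (SD, n = 3) among WT and 30920 ± 806 among cKO samples (log2 fold change 0.03, adjusted p = 0.565), and reads from the shared bases cannot be assigned to either gene without strand.

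The 2 chains of the IL-18 receptor moved in opposite directions, although the call of Il18rap depended on the scaling of the samples. Il18r1, the ligand-binding chain, measured 18032, 17149 and 18170 normalized counts in the WT and 19562, 18840 and 19521 in the cKO samples. All 3 cKO samples were above all WT samples. The log2 fold change was 0.12 with a standard error of 0.0320 (adjusted p = 0.00439), and 0.17 with the samples scaled to equal totals. Il18rap, the accessory chain that completes the signaling complex, measured 40834, 39817 and 44299 normalized counts in the WT and 38643, 36496 and 39459 in the cKO samples. All 3 cKO samples were below all WT samples, and the third WT sample was the highest. The log2 fold change was −0.12 with a standard error of 0.0360 (adjusted p = 0.00779). This call did not hold with equal totals (−0.07, adjusted p = 0.129), without WT replicate 3 (−0.08, adjusted p = 0.0955) or without cKO replicate 2 (−0.09, adjusted p = 0.0610).

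The balance of the chains within a sample does not depend on how samples are scaled. The log2 ratio of Il18r1 to Il18rap was −1.18, −1.22 and −1.29 in WT samples and −0.98, −0.95 and −1.02 in cKO samples. All cKO ratios were above all WT ratios, a shift of 0.24 on the log2 scale, or from 0.427 to 0.506 normalized counts of Il18r1 for each of Il18rap (two-sided exact permutation p = 0.1, the lowest that 3 samples against 3 can give, and 0.125 adjusted over the 5 receptors). Leaving out each sample in turn gave shifts of 0.21 to 0.27. For Il12rb1 and Il12rb2 the ratio differed by 0.02 (exact permutation p = 0.9, adjusted 0.9), and the genotypes overlapped.

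The IL-18 receptor chains are neighbors on chromosome 1. Il18r1 lies from 40465552 to 40500854 and Il18rap from 40515362 to 40551705, both on the plus strand and 14507 bases apart, so the opposite fold changes were those of adjacent genes transcribed in the same direction. Il1rl1, the gene of the IL-33 receptor, ends 136 bases before Il18r1 starts. It averaged 23.5 ± 2.34 normalized counts (SD, n = 3) among WT and 40.4 ± 2.27 among cKO samples, and it did not pass the test (log2 fold change 0.76, adjusted p = 0.0866). Il1rl2, farther upstream, overlapped between genotypes (log2 fold change 0.06, adjusted p = 0.807).

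Ifngr1, the chain that binds IFN-γ, fell in cKO NK cells. It measured 92792, 93674 and 92178 normalized counts in the WT and 73732, 76281 and 74874 in the cKO samples. Samples of 1 genotype lay close together, and all cKO samples were below all WT samples. The log2 fold change was −0.31 with a standard error of 0.0286 (95% confidence interval −0.37 to −0.25, adjusted p = 2.37e-09). It lay between −0.32 and −0.30 when each sample was left out in turn, and was −0.26 with equal totals. Ifngr1 lies on chromosome 10 from 19591949 to 19610229, on the plus strand.

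Ifngr2, the chain that completes the IFN-γ receptor and brings in JAK2, was counted in only 29 to 66 reads per sample. It measured 37.7, 34.5 and 46.8 normalized counts in the WT and 45.8, 59.98 and 43.0 in the cKO samples, and the genotypes overlapped. The log2 fold change of 0.31 had an interval of −0.30 to 0.92 (adjusted p = 0.455), so a difference was not detectable at this depth. On the log2(value + 1) scale, the change of a gene this low is also understated. The log2 ratio of Ifngr1 to Ifngr2 was lower in every cKO sample than in every WT sample, by 0.62 (exact permutation p = 0.1, adjusted 0.125). Counting error of Ifngr2 enters this ratio in full, and the difference ranged from −0.75 to −0.49 when each sample was left out in turn.

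Of the IL-10 receptor, the ligand-binding chain Il10ra was lower in cKO. It measured 15924, 16066 and 15272 normalized counts in the WT and 14374, 14825 and 14517 in the cKO samples. All cKO samples were below all WT samples, with a log2 fold change of −0.11 and a standard error of 0.0319 (adjusted p = 0.00657). The call did not hold with equal totals (−0.06, adjusted p = 0.0993). Il10ra lies on chromosome 9 from 45253837 to 45269149, on the minus strand. Il10rb, the accessory chain that also serves the IL-22 and IFN-λ receptors, measured 3146, 3021 and 3141 normalized counts in the WT and 3388, 3162 and 3046 in the cKO samples. The genotypes overlapped (log2 fold change 0.04, interval −0.05 to 0.14, adjusted p = 0.506). The log2 ratio of Il10ra to Il10rb differed by −0.16 between cKO and WT with no overlap (exact permutation p = 0.1, adjusted 0.125), and by −0.19 to −0.10 when each sample was left out in turn.

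Il10rb and Ifngr2 belong to a cluster of class II cytokine receptor genes on chromosome 16. Il10rb lies from 91406164 to 91425834 and Ifngr2 from 91547072 to 91565623, with Ifnar1 between them and Ifnar2 ending 574 bases before Il10rb, all on the plus strand. Exons of Il10rb share 569 bases with the gene model Gm21970, which was not among the genes listed. Ifnar1, a chain of the type I interferon receptor, fell (log2 fold change −0.40, adjusted p = 7.40e-10). Ifnar2, its partner, gave a log2 fold change of −0.10, adjusted p = 0.104, and passed the test when WT replicate 3 or cKO replicate 2 was left out. With all samples, Ifnar1 alone of the 4 receptor genes of this cluster passed the test, beside 36.6% of all genes.

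Of the 10 receptor genes, the deepest fall was that of a chain of the IL-6 receptor. Il6st, the gene of the signaling chain gp130, measured 954, 1055 and 998 normalized counts in the WT and 632, 693 and 620 in the cKO samples. All cKO samples were far below all WT samples. The log2 fold change was −0.63 with a standard error of 0.0750 (95% confidence interval −0.78 to −0.47, adjusted p = 2.02e-07), larger in size than that of 92.6% of all genes tested. It lay between −0.68 and −0.59 when each sample was left out in turn, and was −0.58 with equal totals. Il6st lies on chromosome 13 from 112464070 to 112510086, on the plus strand. T cells also express Il6st. Of the 7 listed T-cell markers, Cd3g (log2 fold change −0.75) and Cd6 (−0.84) were lower in cKO. The call of Cd6 did not hold with equal totals (adjusted p = 0.0531). Cd8a (0.66), Cd3e (0.15), Cd3d (−0.11), Cd4 (−0.15) and Cd5 (−0.08) did not pass the test. With equal totals Cd8a was called higher (adjusted p = 0.0347). The part of T cells in the fall of Il6st was not tested.

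Il6ra, the ligand-binding chain for IL-6, was low, with 80 to 120 reads per sample. It measured 88.4, 95.2 and 114 normalized counts in the WT and 109, 107 and 110 in the cKO samples. The genotypes overlapped (log2 fold change 0.14, interval −0.27 to 0.54, adjusted p = 0.633). Il6ra lies on chromosome 3 from 89864059 to 89913196, on the minus strand, and shares 242 exonic bases with the antisense gene Gm42809, which was not among the genes listed. The log2 ratio of Il6ra to Il6st was above the WT samples in every cKO sample, by 0.76 (exact permutation p = 0.1, adjusted 0.125).

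**Figure D3:**
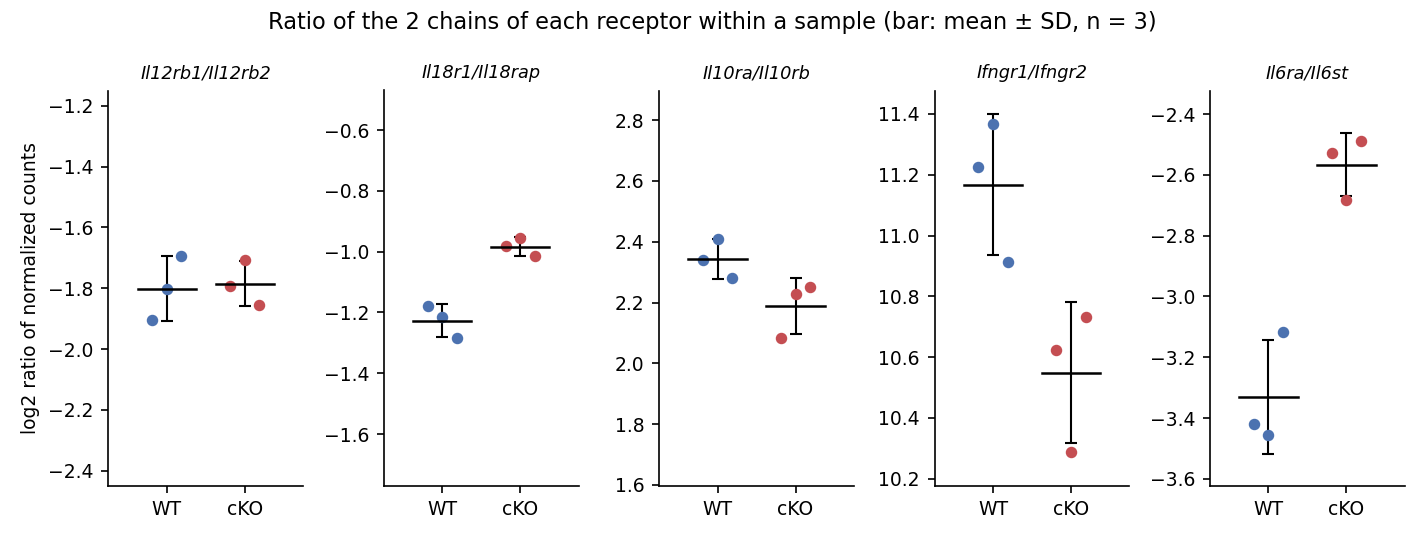
Log2 ratio of the normalized counts of the 2 chains of each receptor within a sample (y axis, the same span in every panel), for 3 WT (blue) and 3 cKO (red) samples, with bars for the mean ± SD. The IL-18 and IL-6 ratios are higher in all cKO samples, the IL-10 and IFN-γ ratios are lower in all cKO samples, and the IL-12 ratios overlap.

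**Figure D4:**
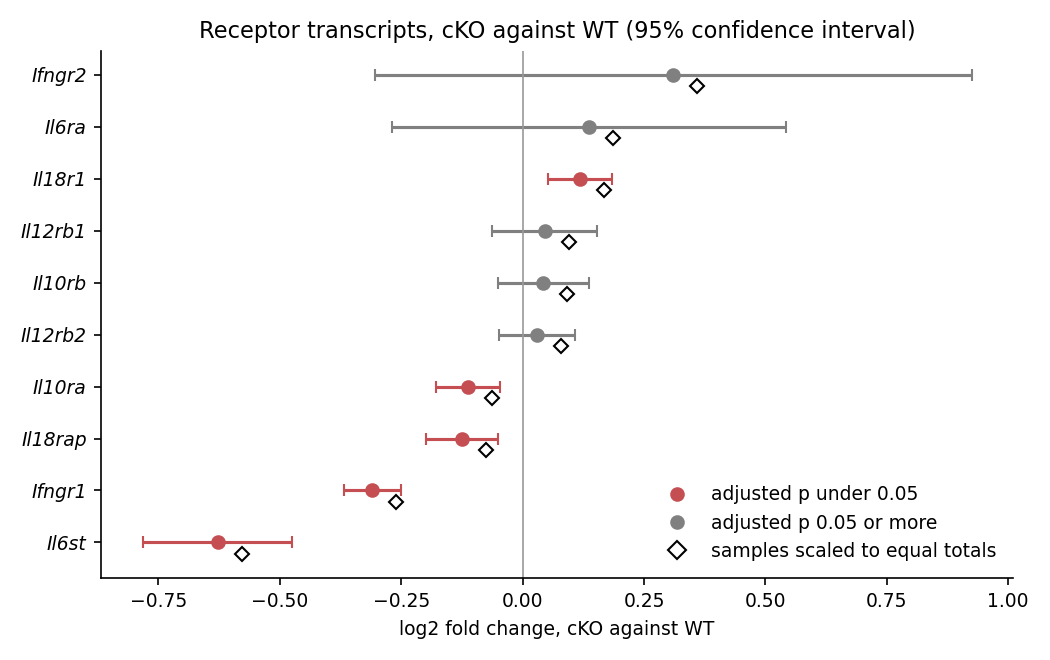
Log2 fold change of each receptor gene, cKO against WT (x axis), with its 95% confidence interval from limma. Red marks an adjusted p under 0.05, gray marks the rest, and open diamonds give the value with samples scaled to equal totals. Il6st at −0.63 and Ifngr1 at −0.31 lie farthest below 0, and the intervals of Ifngr2 and Il6ra are the widest.

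By the rule for likeness, the genes whose log2 values followed those of Il6st most closely over the 6 samples were Rae1, Sh3glb1 and P2ry10, each with a Pearson r of 0.999. Among the other receptor genes, Ifngr1 came nearest to Il6st with r = 0.989. Those closest to Il18r1 were Ckap2l (r = 0.995), Nup210 (r = 0.992) and Rere (r = 0.992). All these values share the 2 genotypes, which do not overlap for Il6st or Il18r1, so r over the 6 samples largely restates the genotype difference, and it is given as a description.

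METTL3 methylates adenosine within short contexts of which GGACT is the most common, often near stop codons. Methylation was not measured in these samples, so the letters of the transcripts are given only as context. In the coding transcript with the longest coding part of each gene, GGACT occurred 10 times in Il6st, 3 times in Ifngr1, 6 times in Il10ra, 2 times in Il18r1 and 1 time in Il18rap. Over 11815 listed genes the median was 3, and 91.1% held at least 1. Per kb, this was 1.15 for Il6st and 1.42 for Ifngr1 beside a median of 1.05, and 0.481 for Il18r1 and 0.205 for Il18rap. The occurrence nearest to the stop codon is printed for the 5 receptor genes that were called, with GGACT in capitals and 8 bases on each side.
Il6st, chr13:112504439-112504459, plus strand: gcagtgaaGGACTggctcctg
Ifngr1, chr10:19609488-19609508, plus strand: tccatatcGGACTtggaatct
Il10ra, chr9:45255611-45255631, minus strand: gaccctctGGACTgtggggca
Il18r1, chr1:40498434-40498454, plus strand: tcgagagtGGACTccacgaag
Il18rap, chr1:40551441-40551461, plus strand: actagattGGACTatggacaa
In Il6st it began 4 bases after the last sense codon, the stop codon included. In Ifngr1 and Il10ra it lay in the coding part, 190 and 91 bases before the stop codon, and in Il18r1 246 bases before it. In Il18rap the single occurrence lay 2363 bases after the coding part, in the 3′ untranslated region. Of all genes compared, 39.9% held GGACT within 200 bases of the stop codon, as did 3 of the 5 called receptor genes, Il6st, Ifngr1 and Il10ra. Of the 5 receptor genes that were not called, Il12rb1, Il10rb and Ifngr2 did as well, so the occurrence did not separate called from uncalled receptor genes.

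The other genes of these pathways were then counted in a list of 72, of which 59 had values. Of the 59, 31 passed the test, 13 higher and 18 lower in cKO, beside 36.6% of all genes. With equal totals all 13 and all 18 were called again in the same direction, and 9 more were called higher.

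Among the ligand genes, those that passed the test were higher in cKO. Ifng, which encodes the ligand of Ifngr1 and Ifngr2, rose from 48707 ± 2106 normalized counts (SD, n = 3) in WT to 54470 ± 1927 in cKO (log2 fold change 0.16, adjusted p = 0.000350). The gp130 cytokines Osm (log2 fold change 0.54, adjusted p = 3.31e-11) and Lif (0.62, adjusted p = 0.00181) rose as well. Il18 gave a log2 fold change of −0.18, adjusted p = 0.311. Of 7 ligand genes with values 3 were higher, beside 17.8% of all genes, and the other 4 did not pass the test. The share called was 42.9%, against 36.6% of all genes. With equal totals Il12a (0.61, adjusted p = 0.0471) and Il6 (0.45, adjusted p = 0.0283) were called higher as well.

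Among 10 related receptor genes with values, 3 were higher and 3 lower, which is 60% called beside 36.6% of all genes. Il18bp, which encodes a soluble protein that captures IL-18 before it reaches its receptor, rose from 313 ± 14.8 to 582 ± 41.4 normalized counts (SD, n = 3; log2 fold change 0.89, adjusted p = 6.63e-08). Sigirr, an inhibitory member of the IL-1 receptor family, fell (log2 fold change −0.26, adjusted p = 7.58e-05). Il27ra, whose product pairs with gp130, also fell (−0.29, adjusted p = 1.70e-06), and Il11ra1, another partner of gp130, rose (0.42, adjusted p = 0.00269). Il20rb, a class II receptor chain, rose by more than any other gene of the list (log2 fold change 1.21, adjusted p = 1.24e-10), with 294 ± 10.9 normalized counts in WT and 681 ± 33.3 in cKO.

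Downstream of the receptors, Tyk2, the kinase bound by IL-12Rβ1, fell (log2 fold change −0.20, adjusted p = 6.60e-06) and Jak2, the kinase bound by IL-12Rβ2, rose (0.13, adjusted p = 0.00288). Jak1, which serves the receptors for IL-10, IFN-γ and IL-6, was higher (0.12, adjusted p = 0.00136). Stat3, the main STAT of IL-10 and IL-6, was lower (−0.36, adjusted p = 7.44e-09). Stat4 gave a log2 fold change of −0.07, adjusted p = 0.109. Of the 12 MyD88 branch genes that serve the IL-18 receptor, 3 were lower and 0 higher, which is 25% called beside 36.6% of all genes. These were Rela (−0.43, adjusted p = 2.57e-11), an NF-κB subunit, Traf6 (−0.27, adjusted p = 9.24e-07) and Irak2 (−0.16, adjusted p = 0.000443), while Myd88 itself had −0.04 (adjusted p = 0.473). With equal totals these 3 calls held. Tab2 (0.11, adjusted p = 0.00403) and Nfkb1 (0.09, adjusted p = 0.0209) were then called higher. Among 7 inhibitor genes 2 were higher and 1 lower, which is 42.9% called beside 36.6% of all genes. The feedback inhibitors Socs1 (0.53, adjusted p = 4.94e-11) and Socs3 (0.33, adjusted p = 1.98e-09) were the higher ones, and the lower one was Ptpn2, a phosphatase of JAK and STAT proteins (−0.31, adjusted p = 1.78e-07). Adam10, a protease that sheds receptors including IL-6R, gave a log2 fold change of 0.10, adjusted p = 0.0243 and lost the call when samples were left out, while Adam17 had −0.06 (adjusted p = 0.211).

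Of 15 target genes of these receptors, 9 were lower and 2 higher in cKO, beside 18.8% of all genes lower and 17.8% higher. The guanylate-binding proteins Gbp3 (log2 fold change −0.84, adjusted p = 7.91e-16) and Gbp2 (−0.57, adjusted p = 2.41e-09), which IFN-γ induces, fell. Cxcl10, a chemokine induced by interferons, fell by 0.29 on the log2 scale (adjusted p = 7.13e-06). Bcl3, a regulator of NF-κB (−0.70, adjusted p = 3.09e-13), and Il2ra, the α chain of the IL-2 receptor (−0.73, adjusted p = 0.000151), were lower as well. Tbx21, the gene of T-bet, was higher (0.23, adjusted p = 5.47e-07), as was Gadd45g (0.22, adjusted p = 9.88e-05). Irf1 gave a log2 fold change of 0.04, adjusted p = 0.373 and was called higher with equal totals.

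**Figure D5:**
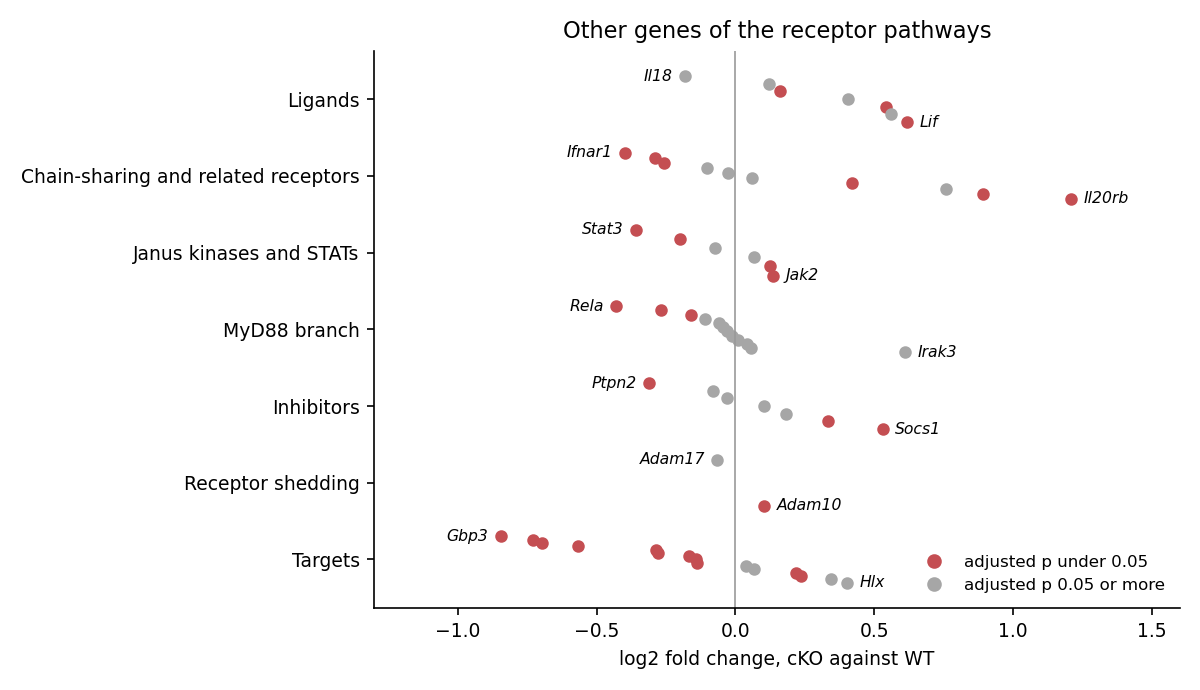
Log2 fold change, cKO against WT (x axis), of the 59 pathway genes with values, in rows by role. Each point is a gene, red for an adjusted p under 0.05 and gray for the rest, and the outermost gene of each row on either side is named. Most red points of the target row lie below 0, and those of the ligand row lie above 0.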

How the data were processed

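mRNA-seq of sorted splenic NK cells was analyzed with 3 WT and 3 cKO samples, grouped by the genotype in the labels. Read pairs were aligned by the authors to GRCm38, assigned to genes and scaled with DESeq2. The submitters' processing notes name HISAT2 2.0.5, featureCounts 1.5.0-p3 and DESeq2 1.16.1. The deposited sample columns hold a signal, the counts of a gene divided by the DESeq2 size factor of the sample. The authors also deposited columns of their own comparison, which are a log2 fold change, a standard error on the same log2 scale, a Wald score, and a p-value before and after adjustment, none of which was used.

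Within a sample, each value below 6000 was a whole multiple of 1 step (tolerance 0.01 of the step), as were 99.6% to 99.7% of all values above 0. Values divided by this step gave the reads on listed genes. Reads outside the listed genes were not analysed here. Of 14490 names, 14105 matched GENCODE vM21, 19 were spreadsheet dates and 1 occurred again. All were kept. A gene was tested when 3 or more samples had a normalized count of 1 or more, which removed none. On log2(value + 1), limma 3.58.1 in R 4.3.3 with a variance trend gave the genotype effect with 95% confidence intervals. Its two-sided p-values were adjusted over all genes by the Benjamini-Hochberg procedure. Chain ratios were compared by the exact permutation test over 20 assignments, whose smallest p is 0.1. The fit was tested on simulated data. Replicate pairs of a genotype differed by more than counting noise.

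The genes named are the receptor genes, Mettl3, genes of the pathway, neighbor and marker lists, and the 3 genes with a mean of at least 1 CPM most alike, by Pearson r over 6 samples, to the called receptor gene with the largest rise and to that with the largest fall. Ncr1 is on the marker list, and Serbp1 and Tox4 are named for shared exons only. The receptor genes and all lists were chosen with earlier results of these data known. Alternatives were another pseudocount, no filter, a filter on CPM, equal totals, a replicate block, each sample left out and, chosen after seeing the data, limma-voom.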

Additional observations from a re-analysis of the deposited data

How the results depend on the processing

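The test on log2 values was run again without the filter, with 0.1 added in place of 1, with only genes at 1 CPM or more in 3 or more samples, with equal totals, with the replicate number as a block and, chosen after seeing the data, with limma-voom. Over these, 5261 to 5543 genes of all, 31 to 40 pathway genes and 3 to 5 receptor genes were called. The count of 3 receptor genes came from equal totals, where 1 was higher and 2 lower, and where all genes gave 3487 higher and 2016 lower and the pathway list 22 higher and 18 lower. This scaling raises all cKO values relative to WT by construction. With each sample left out in turn, 4417 to 4922 genes of all, 30 to 32 pathway genes and 4 or 5 receptor genes were called. The shifts of the chain ratios then lay between −0.04 and 0.07 for IL-12, 0.21 and 0.27 for IL-18, −0.19 and −0.10 for IL-10, −0.75 and −0.49 for IFN-γ and 0.70 and 0.87 for IL-6. The filter on CPM removed Ifngr2. The calls of Il18r1, Ifngr1 and Il6st held under every setting in which they were tested, and none of the 10 fold changes changed sign. Same-numbered samples deviated together weakly or not at all (r of −0.02, 0.12 and 0.04), and differently numbered samples gave r of −0.10 to 0.06. The numbers were not taken as pairs in the main fit, and these values do not settle whether the samples were paired. With the replicate block, 5543 genes of all (2692 higher, 2851 lower), 31 pathway genes and 5 receptor genes were called, and no receptor call changed. Count tests with edgeR and DESeq2 were planned and not run. The reads worked out from the deposited values were used only to give depth, and limma-voom was run on the deposited values. With 29 to 120 reads, depth limits Ifngr2 and Il6ra.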
